A study of Mus musculus with 9 samples.

Results

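The fibroblast growth factor (FGF) genes examined here are 1 secreted ligand (Fgf3), the 4 signalling receptors (Fgfr1, Fgfr2, Fgfr3 and Fgfr4), the receptor adaptor Frs2, and 4 inhibitors of the signal downstream of the receptors (Spry1, Spry2, Spred1 and Spred2). These 10 genes, chosen by symbol from 35275 gene identifiers, were followed in bulk RNA-seq of megakaryocyte-erythroid progenitors (MEPs) from mouse bone marrow, gated as Lin-ckit+CD34-FcγRII/IIIlo, with 25000 sorted cells in each library. Of the 9 libraries, 3 were HS3A8-high and 3 HS3A8-low, which are the upper and lower part of the binding of HS3A8, a single-chain antibody fragment (scFv) against modified heparan sulfate (HS). The other 3 were mock-sorted MEPs stained with MPB49, a scFv with no known epitope, and stand for the whole gate. No library carried a further treatment or an engineered allele according to the labels. The study's methods list C57Bl/6 wild-type mice, matched for age and sex, without giving these for a library, and a legend of the study gives individual mice for the HS3A8 fractions, while the labels do not say whether libraries with the same replicate number came from the same mouse. P-values therefore measure the spread between these samples.

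FGF ligands are secreted proteins that bind receptor tyrosine kinases, and paracrine FGFs need HS chains as a co-receptor, so that the sulfation of HS takes part in which ligands a cell can bind. The activated receptor phosphorylates the adaptor FRS2, which recruits GRB2, SHP2 and SOS and so starts the RAS-ERK cascade. Sprouty (Spry) and Spred proteins restrain that cascade, and several of them are themselves induced by it. Fgf3 was first known as a site of viral insertion in mouse mammary tumours and is best known for its part in inner ear and tail development.

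Library totals ran from 11781637 to 15850037 counts, so that 1 read counted equalled 0.0588 to 0.09 CPM, the read count relative to the library total after scaling by the trimmed mean of M-values (TMM) over all 9 libraries. Where a gene had no read, up to 3 could have been missed by chance, which is 0.176 to 0.27 CPM depending on the library. Kit, the receptor used in the gate, was at 387 to 788 CPM and the summed erythroid markers at 7055 to 9718 CPM. Cd34, whose protein the gate leaves out, was at 0.836 to 11 CPM in HS3A8-high, 14.7 to 42.3 in control and 28.2 to 74.5 in HS3A8-low MEPs. HS3A8-high replicate 3 and HS3A8-low replicate 3 stood apart in 10 granulocyte and monocyte markers, with summed levels of 1515 and 3528 CPM against 7.07 to 226 CPM in the other 7 libraries. Intervals of pooled counts and limits for genes without reads cover counting error only, and reads without molecular identifiers are not independent molecules. Intervals of log2 fold changes come from the edgeR fits and also include the spread between libraries.

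The sequence of the Fgf3 locus is shown first, because Fgf3 was the member with the widest range across the groups. Fgf3 (ENSMUSG00000031074) is a protein-coding gene on the plus strand of GRCm38 (the build mm10 names) at chr7:144838083-144844436, none of its exonic bases lie in the exons of another annotated gene, and 0% of its exonic 50-base words occur in another gene. GENCODE gives it more than 1 transcript start. The bases directly before the first exon of the transcript with the later start, at chr7:144838362-144838594 of GRCm38.p6 and from the RefSeq promoter window, are printed 5′ to 3′ with capitals at the only match to a GATA motif (AGATAA or its reverse complement TTATCT), which begins 98 bases upstream of that exon in the strand of the gene. The transcript with the earlier start begins upstream of this window, which lies in its first intron, so that the window is within the annotated gene.
Fgf3 upstream: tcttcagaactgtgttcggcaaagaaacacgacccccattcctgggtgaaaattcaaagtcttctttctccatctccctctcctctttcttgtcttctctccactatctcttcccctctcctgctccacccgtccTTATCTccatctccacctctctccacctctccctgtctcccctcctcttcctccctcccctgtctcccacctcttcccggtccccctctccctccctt
C and T made up 79.8% of these 233 bases. The median was 49.8% over the first 233 bases of each of 32851 annotated promoter windows, and 99.9% of those stretches held less. In other genes these stretches need not lie directly before the first exon. The GATA letters, counted on both strands, occur in 9.57% of the same stretches. On both strands, no match was found here to a RUNX motif (TGTGGT, in 13.3% of stretches), an ETS motif (CCGGAAG, 5.76%), a GC box (GGGCGG, 30.3%), a TATA box (TATAAA, 11.9%) or an AP-1 motif (TGACTCA, 4.23%). None of the motifs overlap each other, and a match or its absence describes these letters only.

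A pair of further ligand genes lies on the same strand just downstream. Fgf4 begins 2.9 kb and Fgf15 52.1 kb after the end of Fgf3. The middle coding exon of each is 104 bases long, and the 3 exons are shown because reads of the neighbours could only be confused if the sequences were alike. They lie at chr7:144840671-144840774 (Fgf3), chr7:144862232-144862335 (Fgf4) and chr7:144897116-144897219 (Fgf15) of GRCm38, and capitals mark the positions at which all 3 have the same base.
Fgf3: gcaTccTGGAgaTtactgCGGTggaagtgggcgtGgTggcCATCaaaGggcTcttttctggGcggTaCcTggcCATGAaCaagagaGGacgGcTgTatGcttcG
Fgf4: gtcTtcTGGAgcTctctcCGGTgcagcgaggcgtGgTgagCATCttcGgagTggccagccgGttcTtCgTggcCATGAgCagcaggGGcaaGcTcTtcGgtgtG
Fgf15: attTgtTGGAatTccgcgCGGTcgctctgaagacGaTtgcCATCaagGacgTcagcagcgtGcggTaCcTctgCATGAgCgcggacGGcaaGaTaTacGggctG
The same base stood in all 3 genes at 35 of 104 positions. Fgf3 matched Fgf4 at 56.7% and Fgf15 at 50% of positions, and the longest run shared by Fgf3 with either neighbour was 9 bases.

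Fgf3 RNA was close to the detection limit in HS3A8-high MEPs and present in HS3A8-low MEPs, with total MEPs between them. HS3A8-high replicates 1, 2 and 3 held 5, 2 and 0 Fgf3 counts (0.311, 0.152 and 0 CPM). HS3A8-low replicates 1, 2 and 3 held 263, 235 and 101 counts (15.4, 16.9 and 8.58 CPM), and the MPB49 controls held 57, 70 and 56 counts (5.13, 4.47 and 4.11 CPM). No library of a group overlapped with a library of another group. The group means were 0.154 ± 0.155 CPM in HS3A8-high, 4.57 ± 0.519 CPM in the control and 13.6 ± 4.44 CPM in HS3A8-low MEPs (SD, n = 3 each). Among all genes tested, the share without overlap was 27.6% for HS3A8-high against HS3A8-low, 14% for HS3A8-high against control and 12.1% for HS3A8-low against control.

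As a description, the fitted log2 fold change of Fgf3 was -6.37 (SE 0.751) for HS3A8-high over HS3A8-low, a level 82.9-fold lower. It was -4.80 (SE 0.808) for HS3A8-high over control and 1.54 (SE 0.334) for HS3A8-low over control. No p is given for Fgf3, since its levels across these groups were known when it was chosen. Pooled over the libraries of a group, 7 counts in HS3A8-high MEPs correspond to 0.157 CPM with a 95% exact Poisson interval from 0.0632 to 0.324 CPM, against 14.5 CPM (13.4 to 15.8) in HS3A8-low and 4.44 CPM (3.82 to 5.13) in the control. The control lay below the midpoint of both fractions, 6.9 CPM, in each of its 3 libraries. In bulk samples, fewer cells that express a gene and less RNA of it per cell cannot be told apart.

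**Figure D1:**
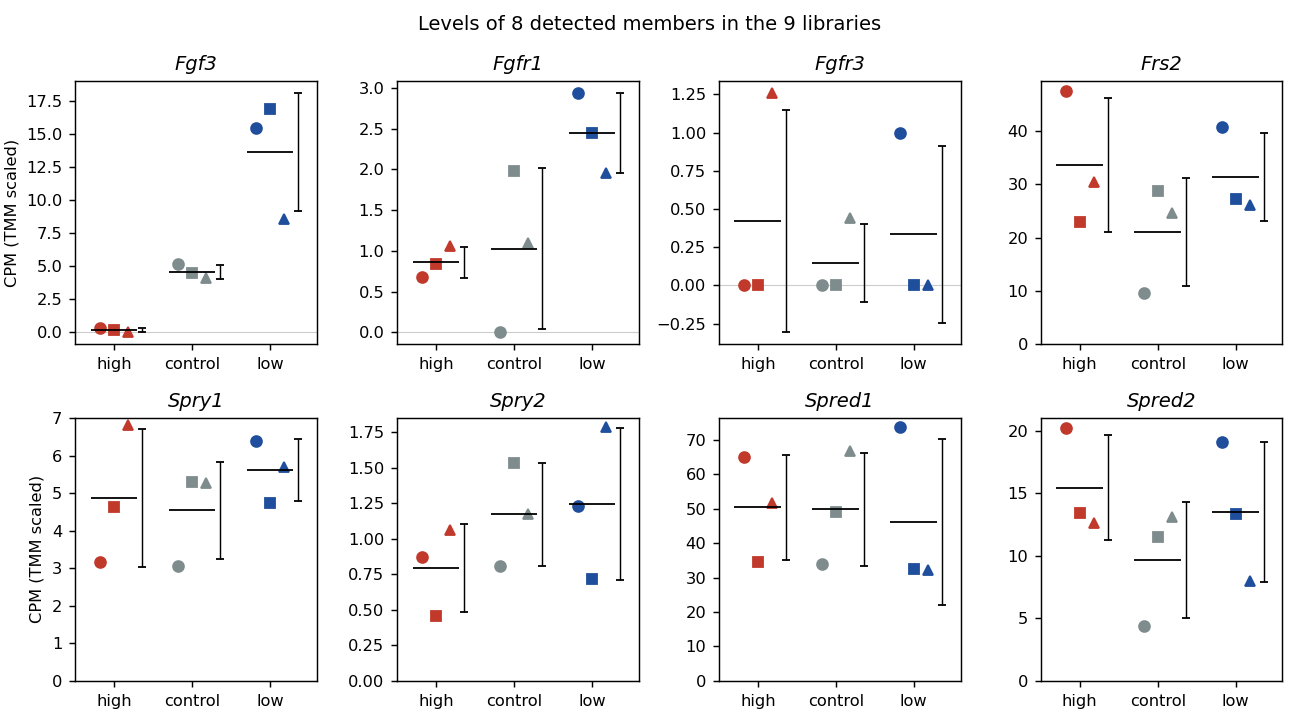
TMM-scaled CPM of the 8 members with any count, in HS3A8-high, MPB49 control and HS3A8-low MEPs. Circles, squares and triangles are replicates 1, 2 and 3, lines are means and bars SDs (n = 3), and each panel has its own axis. Fgf3 separates all 3 groups (means 0.154, 4.57 and 13.6 CPM), Fgfr1 separates the HS3A8 fractions, and the adaptor and the inhibitors overlap between groups.

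Fgf15, the mouse counterpart of human FGF19 and an endocrine ligand of the gut, showed the same order of groups at a lower level. It had no count in the 3 HS3A8-high libraries, 25, 34 and 7 counts in the HS3A8-low libraries (1.47, 2.45 and 0.595 CPM) and 4, 14 and 8 counts in the control (0.360, 0.893 and 0.587 CPM). Set against a limit of 3 counts over the 3 HS3A8-high libraries, the pooled Fgf15 level was 23.8-fold that limit in HS3A8-low and 9.36-fold in control MEPs. These folds are not minima, since the pooled levels carry counting error too. They were 1.6 CPM (95% exact Poisson interval 1.24 to 2.04) in HS3A8-low and 0.63 CPM (0.412 to 0.924) in control MEPs. HS3A8-low and control overlapped, with a log2 fold change of 1.23 (SE 0.677, edgeR quasi-likelihood adjusted p = 0.84). Antisense transcripts overlap exons of Fgf15, and because the strand setting of the counting was not given in the sources used here, its reads cannot be told apart from antisense ones; the annotated antisense gene Gm26793 had 0 counts in the 9 libraries, and another, Gm39119, has no row in the count table used here.

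No other tested gene around Fgf3 differed between the HS3A8 fractions beyond the test's threshold. Of the 12 other protein-coding genes within 500 kb of Fgf3 in the count table, 4 had no count, Fgf4 among them, and 6 were tested between the HS3A8 fractions, of which 0 passed the test, with a smallest adjusted p of 0.438 (edgeR quasi-likelihood test, 0 at an unadjusted p under 0.05, 0 by DESeq2 and 0 by voom). Ccnd1, which encodes cyclin D1 and lies 85.5 kb downstream, was at 6.08 ± 1.03 CPM in HS3A8-high and 5.46 ± 0.793 CPM in HS3A8-low MEPs (SD, n = 3 each). Upstream, the chloride channel gene Ano1 had 17 counts summed over the 9 libraries and was not tested between the fractions. The HS3A8-low libraries held 16 of these counts, HS3A8-high held 1, and the control held 0. Single HS3A8-low libraries ranged from 0 to 0.764 CPM of Ano1. Also upstream, the cortactin gene Cttn was at 87.6 ± 6.62 and 85.3 ± 10.1 CPM in HS3A8-high and HS3A8-low MEPs (SD, n = 3 each).

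**Figure D2:**
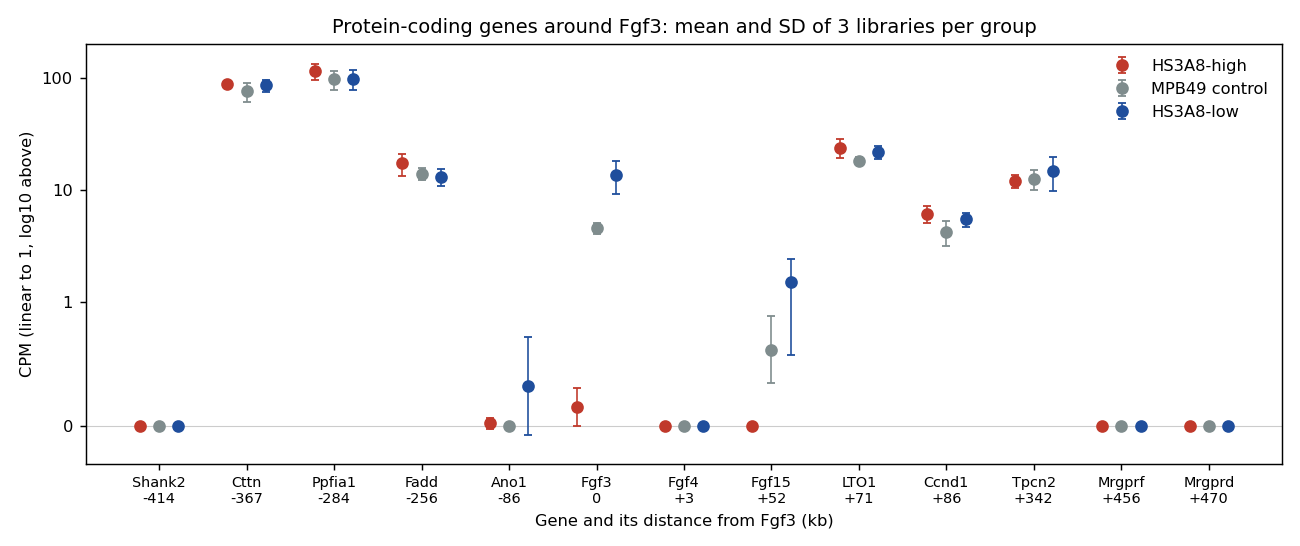
Mean CPM (points) and SD (bars, n = 3) of Fgf3 and the 12 protein-coding genes within 500 kb, by group, in genomic order with the distance from Fgf3 in kb under each name; the axis is linear up to 1 CPM and log10 above. Fgf3 and Fgf15 are ordered HS3A8-high, control, HS3A8-low, whereas the 6 neighbours tested between the fractions had points close together.

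Of the 4 receptors, Fgfr1 carried the counts. HS3A8-high replicates had 11, 11 and 16 Fgfr1 counts (0.683, 0.836 and 1.06 CPM) and HS3A8-low replicates had 50, 34 and 23 counts (2.94, 2.45 and 1.96 CPM). The control replicates had 0, 31 and 15 counts (0, 1.98 and 1.10 CPM), so that the control spanned both sides of HS3A8-high and reached into the HS3A8-low range. The HS3A8 fractions did not overlap, and the log2 fold change of HS3A8-high over HS3A8-low was -1.52 (SE 0.390, 95% interval -2.45 to -0.60), given as a description. Against the control, Fgfr1 differed by -0.29 in HS3A8-high (SE 1.02, adjusted p = 0.912) and by 1.20 in HS3A8-low MEPs (SE 0.970, adjusted p = 0.84) on the log2 scale, and neither passed the edgeR quasi-likelihood test. The estimates against control depended on single control libraries. Without control replicate 1 the log2 fold change was -0.83 for HS3A8-high and 0.66 for HS3A8-low. Without control replicate 2 it was 0.595 for HS3A8-high, a change of sign, and 2.07 for HS3A8-low.

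Fgfr2 and Fgfr4 had no count in any of the 9 libraries, which allows up to 0.0673 CPM pooled over HS3A8-high and 0.0729 CPM over HS3A8-low MEPs. Fgfr3, a receptor known for restraining growth of cartilage, was seen in 1 library of each group, with 19 counts in HS3A8-high replicate 3, 17 in HS3A8-low replicate 1 and 6 in control replicate 3. Its 6 other libraries held 0 counts, and 13.9% of its exonic bases overlap the gene G630022F23Rik. These 3 receptors were too low to be tested, so that 7 of the 10 members entered each test, and the counts given for tested members leave those 3 out.

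Frs2, the adaptor that docks on FGF receptors, was at 47.5, 22.9 and 30.5 CPM in HS3A8-high replicates 1, 2 and 3, at 40.8, 27.3 and 26.1 CPM in HS3A8-low and at 9.63, 28.8 and 24.7 CPM in the control. The groups overlapped, and control replicate 1 was the lowest library. The log2 fold change over the control was 0.67 (SE 0.437, adjusted p = 0.733) in HS3A8-high and 0.55 (SE 0.396, adjusted p = 0.84) in HS3A8-low MEPs, and neither passed. Between the fractions it was 0.09 with a 95% interval from -0.65 to 0.84.

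The Sprouty genes among the members, Spry1 and Spry2, were low in every group. Spry1 was at 3.17, 4.64 and 6.83 CPM in HS3A8-high, 6.40, 4.75 and 5.69 CPM in HS3A8-low and 3.06, 5.30 and 5.28 CPM in control replicates 1, 2 and 3, and 24.4% of its exonic bases overlap Gm42922. Spry2 was at 0.870, 0.456 and 1.06 CPM in HS3A8-high, 1.23, 0.719 and 1.79 CPM in HS3A8-low and 0.810, 1.53 and 1.17 CPM in the control. All 3 groups overlapped for both genes. Over the control, Spry1 differed by 0.09 (SE 0.408, adjusted p = 0.933) in HS3A8-high and 0.27 (SE 0.342, adjusted p = 0.89) in HS3A8-low MEPs on the log2 scale. Spry2 differed by -0.56 (SE 0.532, adjusted p = 0.734) and 0.04 (SE 0.550, adjusted p = 0.988), and the intervals between the fractions were -1.03 to 0.59 for Spry1 and -1.93 to 0.65 for Spry2.

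Spred1 and Spred2, whose products bind neurofibromin and keep RAS inactive, were the higher inhibitors among the members. Spred1 was at 65.0, 34.6 and 51.7 CPM in HS3A8-high, 73.8, 32.4 and 32.2 CPM in HS3A8-low and 33.9, 48.9 and 66.6 CPM in control replicates 1, 2 and 3. Spred2 was at 20.3, 13.4 and 12.7 CPM in HS3A8-high, 19.1, 13.4 and 7.99 CPM in HS3A8-low and 4.41, 11.5 and 13.1 CPM in the control. The groups overlapped for both genes, and replicate 1 was the highest library of both HS3A8 fractions. Spred1 differed from the control by 0.01 (SE 0.310, adjusted p = 0.989) in HS3A8-high and by -0.14 (SE 0.390, adjusted p = 0.951) in HS3A8-low MEPs. For Spred2 these log2 differences were 0.67 (SE 0.419, adjusted p = 0.733) and 0.45 (SE 0.470, adjusted p = 0.858), and between the fractions the intervals were -0.81 to 1.04 for Spred1 and -0.67 to 1.04 for Spred2.

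Taking the 7 tested members as a list, 0 were called against the control in HS3A8-high and 0 in HS3A8-low MEPs by edgeR's quasi-likelihood test at an adjusted p under 0.05, where 0.0174% and 0% of all genes were called. At an unadjusted p under 0.05 it was 1 member in each, Fgf3, against 4.89% and 5.67% of all genes. DESeq2 and limma's voom each gave 1 member, again Fgf3, in both control comparisons. Both tools also called more of all genes there than edgeR did, with the counts given in the last section. Between the HS3A8 fractions 1 member, Fgf3, was called, where 3.21% of all 11791 genes were called lower and 0.611% higher in HS3A8-high (3.82% in all, and 11.6% with the replicate block, which also called 1 member). At an unadjusted p under 0.05 it was 2 members, against 19.8% of all genes. Nothing is read from the counts that hold Fgf3 in any of the 3 comparisons, or from those between the fractions, because the members were chosen with these levels known. The median log2 fold change of the 7 was -0.22 between the fractions against -0.03 over all genes, 0.01 against 0.00 (-0.00301) for HS3A8-high over control, and 0.45 against 0.00 (-0.00278) for HS3A8-low over control.

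**Figure D3:**
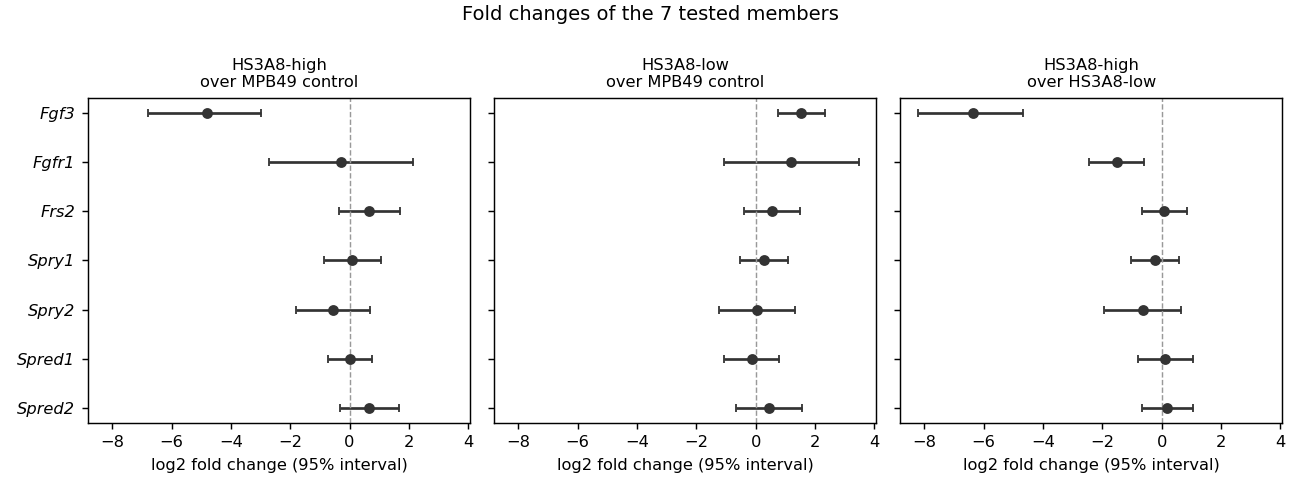
Log2 fold changes of the 7 tested members with 95% intervals from the edgeR fits, in the 3 comparisons. Every interval of Fgf3 lies away from 0, Fgfr1 does so only between the HS3A8 fractions (-2.45 to -0.60), and the intervals of the other 5 members include 0 in each comparison. The members were chosen with these levels known. The intervals of Fgf3, and those of all members between the fractions, are therefore a description and not a test.

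Compared per kilobase of annotated exon, Spred1 was the highest member in each group, at 7.43 ± 2.25 CPM per kb in HS3A8-high, 7.34 ± 2.41 in control and 6.80 ± 3.53 in HS3A8-low MEPs (SD, n = 3 each). In HS3A8-low MEPs Fgf3 came next at 5.87 ± 1.91 CPM per kb, with a range from 3.69 to 7.27 that overlapped that of Spred1, 4.75 to 10.9, and that of Frs2, 2.98 to 4.67. In HS3A8-high MEPs Fgf3 stood at 0.0663 ± 0.0668 CPM per kb, next to Fgfr1 at 0.0871 ± 0.0192 and Fgfr3 at 0.0586 ± 0.102. Frs2 and Spred2 were neighbours in that order in every group and did not differ beyond their spread. They were at 3.84 ± 1.44 and 3.35 ± 0.904 CPM per kb in HS3A8-high, 2.41 ± 1.15 and 2.1 ± 1.0 in control, and 3.59 ± 0.937 and 2.92 ± 1.21 in HS3A8-low MEPs. Fgfr1, at 0.248 ± 0.0498 CPM per kb in HS3A8-low MEPs, stayed below Spry2 (0.597 ± 0.255) there.

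Compared with 11334 genes that averaged 1 CPM or more, those whose log2 CPM followed Fgf3 most closely over the 9 libraries were Tek, which encodes the angiopoietin receptor TIE2 of stem and endothelial cells (Pearson's r = 0.993), the scavenger receptor gene Scarf1 (0.989) and Pik3ip1, an inhibitor of PI3 kinase (0.985). Tek was at 1.59 ± 0.496 CPM in HS3A8-high, 6.78 ± 0.465 in control and 13.2 ± 3.73 in HS3A8-low MEPs (SD, n = 3 each). The genes most like Fgfr1 were Map7d1 (0.988), Ccni (0.988) and Ube2h (0.985), and those most like Frs2 were Btbd7 (0.985), Bace1 (0.982) and Mafg (0.981). For Spry2 they were Traf5 (0.922), Epb41l2 (0.907) and Klf11 (0.901). For Spred1 they were Ppp1r15b (0.959), Mgat4a (0.942) and Nkap (0.931), and for Spred2 Fam53b (0.994), Xpr1 (0.990) and Kdm2a (0.989). Between members, r was highest for Frs2 with Spred2 (0.915), and r of Fgf3 with the other 6 ran from -0.222 to 0.405. These values describe 9 libraries that share groups and depth.

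Several marker lists of other cell types held genes that were lower in HS3A8-high MEPs, as Fgf3 was. Between the fractions, edgeR's quasi-likelihood test called 3.21% of all genes lower and 0.611% higher in HS3A8-high, and 11.6% in all with the replicate block. At an unadjusted p under 0.05 it was 19.8% of all genes, and 27.6% did not overlap. DESeq2 and voom called more genes than edgeR without the block did. The 10 megakaryocyte markers summed to 39.5 to 58.3 CPM in HS3A8-high, 163 to 273 in control and 228 to 455 in HS3A8-low MEPs, and 6 of 10 were called lower in HS3A8-high than in HS3A8-low. The 10 stem and multipotent progenitor markers summed to 23.0 to 40.9, 106 to 158 and 212 to 258 CPM in the same order, with 4 of 9 tested called lower, and the 8 T and NK cell markers to 4.71 to 37.9, 55.0 to 112 and 197 to 245 CPM, with 3 of 8 called lower. The 7 endothelial and stromal markers summed to 6.84 to 11.1, 14.1 to 20.7 and 33.2 to 41.4 CPM. Of the 2 tested, Pecam1 and Col1a2, edgeR called 1 lower, Pecam1, while DESeq2, voom and the replicate block each called 2. Another of the 7, the endothelial cadherin gene Cdh5, was at 0 in the 9 libraries. The 6 basophil and mast cell markers summed to 1.24 to 68.2, 8.36 to 25.0 and 21.7 to 144 CPM, and the 6 B cell markers to 1.37 to 5.24, 4.15 to 9.0 and 9.69 to 13.1 CPM. Of these, 0 of 3 and 0 of 2 tested were called by edgeR (3 and 1 at an unadjusted p under 0.05), 2 and 1 by DESeq2, 2 and 1 by voom and 1 and 1 with the replicate block. The 12 erythroid markers summed to 9151 to 9718 CPM in HS3A8-high, 7627 to 9246 in control and 7055 to 8124 in HS3A8-low MEPs. Between the fractions 0 of 12 were called by edgeR (7 at an unadjusted p under 0.05), 3 by DESeq2, 5 by voom and 5, all higher in HS3A8-high, with the replicate block, and 7 of 12 did not overlap. The part of these cell types in the Fgf3 level was not tested. Of the 10 granulocyte and monocyte markers, 9 were tested between the fractions, all of them lower in HS3A8-high. EdgeR without the block, DESeq2 and voom called 0 of them, and the replicate block called 4 lower. These markers were highest in replicate 3 of both fractions, where Fgf3 was at 0 and 8.58 CPM, the lowest value of each fraction. Without those libraries the log2 fold change of Fgf3 was -6.02.

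The other secreted ligands were almost silent. Of 17 besides Fgf3, 12 had no count in the 9 libraries, and after Fgf15 the next by mean level were Fgf9, with 3 counts in all, and Fgf22, with 2 single counts. Among the 4 intracellular FGF homologous factors, which bind sodium channels and not receptors, Fgf13 averaged 0.317 CPM and Fgf11 0.198 CPM over all libraries, while Fgf12 was at 0. Of the co-receptors, decoy receptor and carriers, Klb, the co-receptor for endocrine FGFs, had 2 counts in all.

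Fgfrl1, a receptor without a kinase domain that binds FGF ligands and HS, was at 54.5 ± 7.39 CPM in HS3A8-high, 49.3 ± 4.2 in control and 40.7 ± 3.55 in HS3A8-low MEPs (SD, n = 3 each), above Fgfr1 in every group also per kilobase of exon (17.3 against 0.146 CPM per kb over all libraries). The fractions did not overlap, with a log2 fold change of 0.42 (SE 0.140, adjusted p = 0.16, and 0.0717 with the replicate number as a block), which did not pass. Fgfbp3, a carrier that releases FGFs from the matrix, was at 7.88 ± 1.58, 9.27 ± 1.95 and 9.76 ± 1.56 CPM in HS3A8-high, HS3A8-low and control MEPs, with a log2 fold change between the fractions of -0.24 (SE 0.271, adjusted p = 0.68).

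The adaptors and RAS-ERK kinases were present in every library. Of 17 genes, 17 were tested and 0 were called in each of the 3 comparisons by edgeR's quasi-likelihood test. At an unadjusted p under 0.05 it was 4 between the HS3A8 fractions (Map2k2, Mapk3, Plcg1 and Shc1), against 19.8% of all genes, and 0 in each control comparison. Between the fractions the replicate block called 1, Plcg1, against 11.6% of all genes. DESeq2 and voom, which called more of all genes there than edgeR without the block, each called 1. This was the ERK kinase gene Map2k2 (log2 fold change 0.29, SE 0.0809, edgeR adjusted p = 0.105). In each control comparison DESeq2 and voom called 0. Plcg1, a phospholipase recruited by activated receptors, was at 21.2, 12.8 and 10.7 CPM in HS3A8-high and 35.7, 21.1 and 21.3 CPM in HS3A8-low replicates 1, 2 and 3. The groups overlapped narrowly, HS3A8-high was lower in each numbered pair, and the log2 fold change was -0.82 (SE 0.344, adjusted p = 0.252, and 0.0225 with the block). The list had a median log2 fold change of -0.02 between the fractions, against -0.03 over all genes.

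Among the other feedback inhibitors 6 of 9 were tested. EdgeR called 1, Dusp6, lower in HS3A8-high than in HS3A8-low MEPs, against 3.21% of all genes. Dusp6, a phosphatase that removes the activating phosphates from ERK, was at 25.4, 20.1 and 21.9 CPM in HS3A8-high, 45.0, 42.8 and 47.7 CPM in HS3A8-low and 50.8, 41.5 and 34.6 CPM in control replicates 1, 2 and 3. HS3A8-high lay below both other groups without overlap, whereas HS3A8-low and control overlapped. The log2 fold change was -1.01 (SE 0.141, adjusted p = 0.0223) against HS3A8-low and -0.92 (SE 0.198, adjusted p = 0.397) against the control, the second not passing edgeR's test. DESeq2 called Dusp6 lower than in the control (adjusted p = 0.017), and over all alternatives that adjusted p ran from 0.017 to 0.842. The upper end is that of the replicate block, whose numbers did not pair HS3A8-high with the control. Spry4, the Sprouty gene with the highest level, was at 16.3 ± 1.13 CPM in HS3A8-high and 10.2 ± 5.0 CPM in HS3A8-low MEPs (SD, n = 3 each; log2 fold change 0.68, SE 0.349, adjusted p = 0.344) and was picked after its values were seen.

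Of the ERK target genes 4 of 6 were tested. EdgeR called 1, the immediate-early transcription factor gene Egr1, lower in HS3A8-high than in HS3A8-low MEPs, against 3.21% of all genes. Egr1 was at 23.0, 10.1 and 13.9 CPM in HS3A8-high, 205, 112 and 80.2 CPM in HS3A8-low and 109, 49.97 and 44.3 CPM in control replicates 1, 2 and 3. HS3A8-high lay below both other groups without overlap. The log2 fold change was -3.08 (SE 0.453, adjusted p = 0.0253) against HS3A8-low, and against the control it was -2.11 (SE 0.447, adjusted p = 0.383), which did not pass edgeR's test. DESeq2 (adjusted p = 0.001) and voom (0.017) called Egr1 lower than in the control, and over all alternatives the adjusted p ran from 0.001 to 0.824. HS3A8-low over control gave 0.92 (SE 0.468, edgeR adjusted p = 0.84), which voom called (0.0293) and no other alternative did, with a range from 0.0293 to 1. The other 3 tested, Etv5, Myc and Ccnd1, were not called, and Etv5, an ETS factor induced by FGF signals, had a log2 fold change of 0.49 (SE 0.232, adjusted p = 0.307).

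The calls of Dusp6 and Egr1 were lost without any of 4 libraries: HS3A8-high replicate 1 (adjusted p 0.0533 and 0.0593), HS3A8-high replicate 2 (0.0957 and 0.0961), HS3A8-low replicate 1 (0.0737 and 0.0574) or HS3A8-low replicate 2 (0.117 and 0.117). Beside them, 8 general immediate-early genes such as Fos and Jun summed to 692 to 946 CPM in HS3A8-high, 1802 to 2005 in HS3A8-low and 1070 to 2285 in control MEPs. Where edgeR called 3.21% of all genes lower in HS3A8-high than in HS3A8-low, it called 5 of 7 tested immediate-early genes lower. Their part in the Egr1 and Dusp6 levels was not tested.

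**Figure D4:**
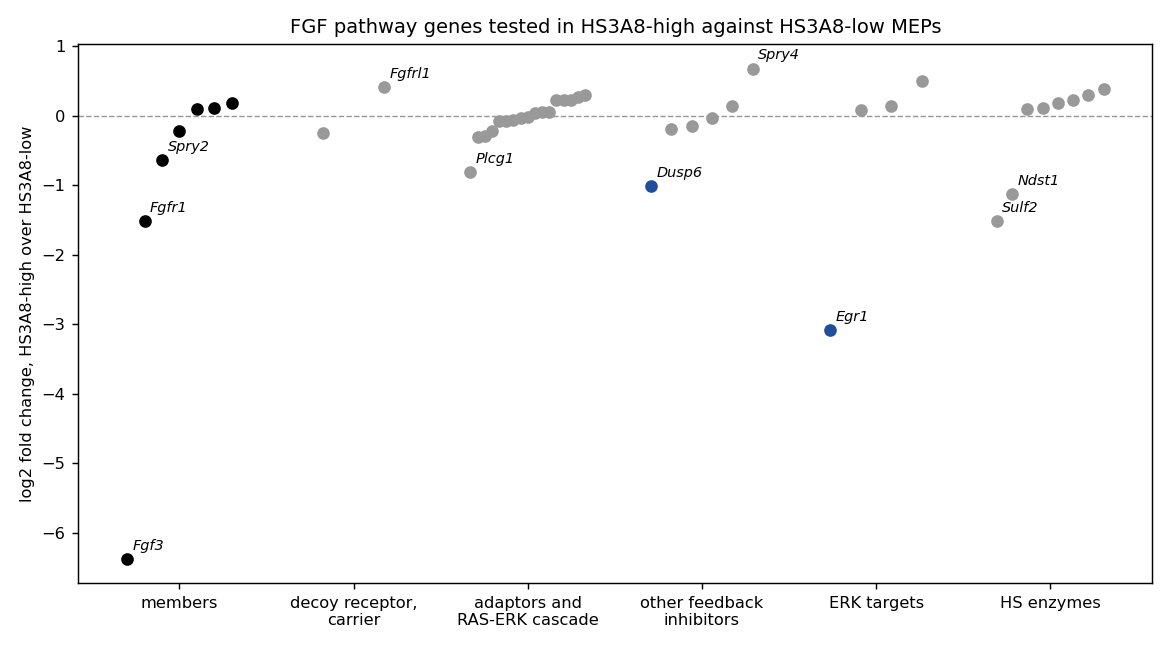
Log2 fold changes of HS3A8-high over HS3A8-low MEPs for the tested members and the tested genes of 5 further pathway lists, 1 point per gene. Blue points (Dusp6 and Egr1) had an adjusted p under 0.05 by edgeR, and black points are the members, shown as a description with no test; most of the RAS-ERK cascade lies near 0, with a median of -0.02.

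Of 10 enzymes that make or modify the sulfated HS site for FGFs, 8 were tested between the HS3A8 fractions. EdgeR without the block called 0, DESeq2 0 and voom 0. With the replicate block edgeR called 2, Ndst1 and Hs6st1, where the block called 11.6% of all genes. At an unadjusted p under 0.05 edgeR without the block gave 2, Ndst1 and Ext2, against 19.8% of all genes. Ndst1, an N-deacetylase and N-sulfotransferase, was at 12.3, 5.93 and 7.69 CPM in HS3A8-high, 28.6, 15.2 and 12.6 CPM in HS3A8-low and 5.85, 10.6 and 5.72 CPM in control replicates 1, 2 and 3, and both HS3A8 fractions were separate by a narrow margin. Its log2 fold change between the fractions was -1.13 (SE 0.415, adjusted p = 0.191, and 0.024 with the block). Hs6st1, which adds 6-O-sulfate, was at 202, 111 and 184 CPM in HS3A8-high and 174, 82.7 and 143 CPM in HS3A8-low replicates 1, 2 and 3, higher in HS3A8-high in each numbered pair, with a log2 fold change of 0.30 (SE 0.327, adjusted p = 0.67, and 0.0449 with the block).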

How the data were processed

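Bulk RNA-seq of sorted mouse MEPs was analysed from the whole-number read counts per gene that the authors deposited, 1 column per library and without normalization. The study states mapping to mm10 with STAR, and the submitters' processing notes name STAR 2.5 and HTSeq 0.6.1. The annotation release and strand setting of the counting were not given in the sources used here. Of 35275 identifiers, 34490 matched GENCODE M21 (GRCm38), from which symbols, coordinates and exon lengths were taken. Promoter windows came from RefSeq, where 9 of 10 members matched.

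The main test was edgeR 4.0.16 (R 4.3.3): TMM, filterByExpr, quasi-likelihood test of the 2 groups compared, Benjamini-Hochberg adjusted p under 0.05. DESeq2 1.42.0, limma 3.58.1 (voom with quality weights), other scalings and filters, a fit of all 9 libraries, a replicate block and leaving out libraries were alternatives. The scripts were tested on simulated data. Similarity used log2 CPM with a prior count of 2. Genes were named by rule: all members, for each pathway list the genes called in either the main or the blocked fit, at most 6, otherwise the 3 highest, and the 3 genes most like each member with a mean of at least 1 CPM; those most like Spry1 are not reported here. The members and lists were chosen with earlier results of these data known.

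Replicate numbers are shared between groups. Over 12108 genes, deviations from the group means of same-numbered HS3A8-high and HS3A8-low libraries correlated at 0.325 to 0.509 (other pairs -0.469 to 0.122), so these numbers were taken to pair the fractions. They did not pair HS3A8-high (-0.223 to -0.0769) or HS3A8-low (-0.346 to 0.0318) with the control. With the block, 1367 of 11791 genes (11.6%) were called between the fractions, against 451 without.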

Additional observations from a re-analysis of the deposited data

How the results depend on the processing

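No called value of a single gene changed direction. Of 637 values of single genes under alternatives, 36 changed sign, and 0 of these were called. Between HS3A8-high and HS3A8-low MEPs, 451 genes were called, and 1305 with DESeq2, 1490 with voom, 1367 with the replicate block, and 748 without both replicate 3 libraries, an alternative chosen after seeing the data; leaving out 1 library gave 0 to 439 genes. Members called there numbered 1, 2 with voom (Fgf3 and Fgfr1), 1 with the replicate block, and 0 to 1 when 1 library was left out, with 0 without HS3A8-high replicate 2, HS3A8-low replicate 1 or HS3A8-low replicate 2. In HS3A8-high against control, 2 genes and 0 members were called, 138 and 1 with DESeq2, 100 and 1 with voom, 32 and 1 with all 9 libraries in the fit, 9 genes with no count filter, 0 genes with the replicate block, and 0 to 5 genes and 0 members when 1 library was left out. In HS3A8-low against control, 0 genes and 0 members were called, 94 and 1 with DESeq2, 287 and 1 with voom, and 0 with the replicate block or when 1 library was left out. The causes were not tested. Replicate numbers did not pair either fraction with the control, so the block had no pairing to use in the control comparisons. The block changed no other call of a named gene than those of Plcg1, Ndst1 and Hs6st1; over all alternatives their adjusted p between the fractions ran from 0.0225 to 0.507, 0.024 to 0.435 and 0.0449 to 0.935, and those of Dusp6 and Egr1 from 1.06e-07 to 0.117 and 1.17e-12 to 0.117. The log2 fold change of Fgf3 ran from -7.43 to -5.55 between the fractions, from -5.82 to -3.99 in HS3A8-high against control and from 1.37 to 1.83 in HS3A8-low against control. Depth limits Fgfr2, Fgfr3, Fgfr4 and Fgf15, whose counts were too few for a test or for a firm fold.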
